A study of Mus musculus with 2 samples.

Results

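The 48 genes described here encode the working parts of skeletal muscle: thick and thin filament proteins, the Z-disc and M-band, creatine kinases, calcium handling and excitation proteins, the muscle acetylcholine receptor, and factors that assemble the filaments. They were chosen by name from a fixed list of gene symbols, with no rule on their level but with earlier results of these data known. All 48 were found among the 43346 Ensembl genes of the deposited tables. The material was total RNA from the limbs of B6NCrl mouse embryos at embryonic day 12.5. There was 1 group with 2 biological replicates, a pool from 88 embryos (replicate 1) and a pool from 68 embryos (replicate 2), with both sexes mixed in each. No allele, treatment or second condition is named, and the genes can therefore be compared with each other and from one library to the other.

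Muscle contracts when myosin heads of the thick filament pull on actin in the thin filament. Calcium released from the sarcoplasmic reticulum binds troponin C, and troponin I and troponin T pass the change on to tropomyosin, which uncovers the myosin sites. The nerve starts this by releasing acetylcholine onto a receptor whose current opens voltage sensors and ryanodine receptors. Many of these proteins come as separate genes for slow fibres, fast fibres and heart, and developing limb muscle is known to mix them. The limb buds of this stage hold mostly mesenchyme, and their first muscle fibres are forming.

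Levels are in TPM (transcript abundance), a unit scaled by library and by transcript length so that genes can be compared. Expected counts are the reads that the quantifier assigned to a gene. They summed to 29810026 in replicate 1 and 29938721 in replicate 2, and the 48 genes held 0.241% and 0.239% of them. Markers of limb mesenchyme were detected in 5 of 5 cases, with summed levels of 986 and 1047 TPM in replicates 1 and 2. All 7 skeletal muscle markers were detected (670 and 632 TPM). Of 10 cardiac markers 2 were detected, Sln, which skeletal muscle also makes, and Myl7, and Nkx2-5 was listed at 0, with summed levels of 44.6 and 35.1 TPM. Smooth muscle markers were detected in 3 of 7 cases (169 and 159 TPM), led by Acta2 and with Myh11 at 0.17 TPM in both libraries. In whole tissue, fewer cells of a type and less RNA per cell cannot be told apart.

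A gene counts as detected where both libraries reach 1 TPM. This was met by 42 of the 48 genes (87.5%), beside 33.5% of all Ensembl genes and 59.2% of protein-coding ones. The 6 that fell short were Myl2, Myl3, Myl6b, Mybpc2, Ckm and Ryr3. At least 5 TPM was reached by 29 genes and at least 100 TPM by 7, which were the 3 tropomyosins, Tnnt1, Tnnc1, Myl1 and Mylpf. The median of the 48 genes was 12.1 TPM, against 18.3 TPM over all detected genes of the limb. In the order of levels from Tpm1 down to Mybpc2, 26 of 47 neighbours had overlapping ranges over the libraries. The first 7 genes, Tpm1, Tpm3, Tpm2, Tnnt1, Myl1, Tnnc1 and Mylpf, did not overlap with their neighbours.

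**Figure D1:**
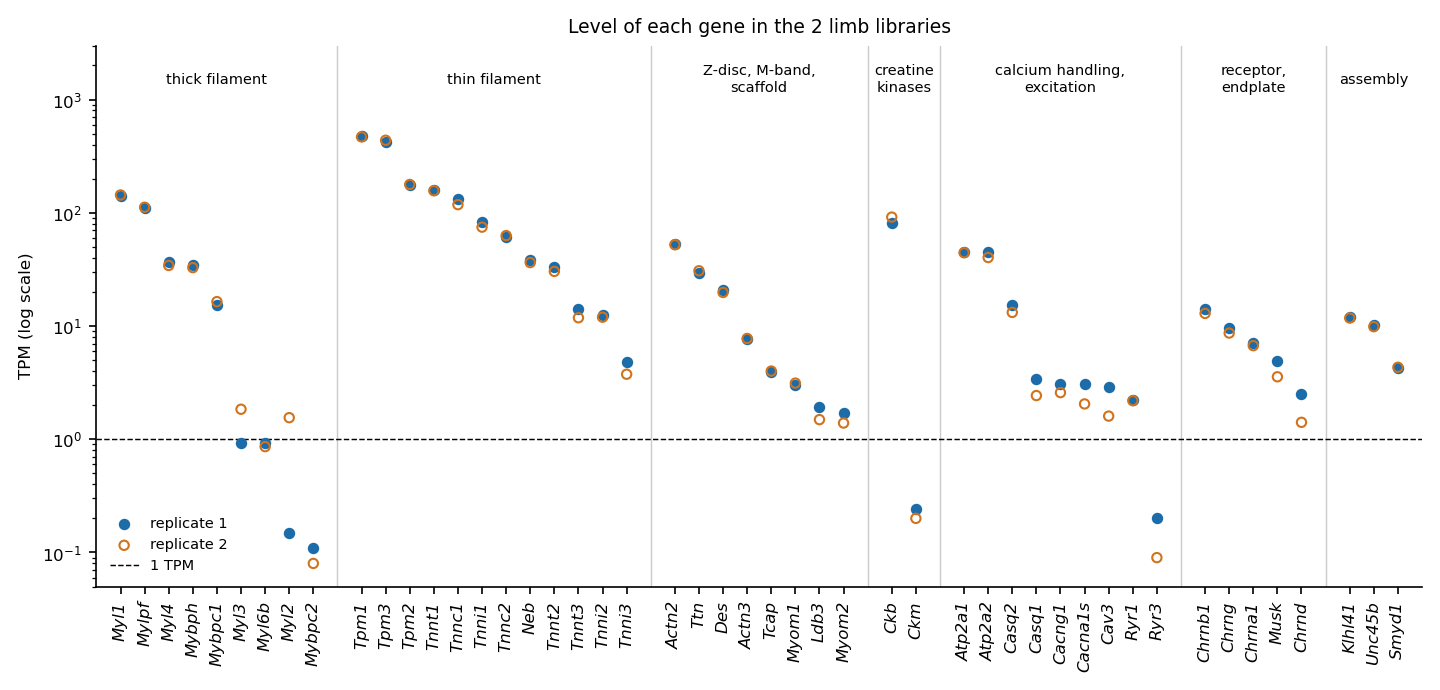
TPM of each of the 48 genes (log axis) in replicate 1 (filled points) and replicate 2 (open points), grouped by role and ordered by mean level, with a dashed line at 1 TPM. The libraries lie close together above 10 TPM. Mybpc2, Ckm and Ryr3 lie lowest in their groups, while Myl2 lies below Myl6b in replicate 1 and above it in replicate 2.

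By role, thin filament genes held 69.0% of the summed level of the 48 genes in replicate 1 and 68.7% in replicate 2. Thick filament genes followed with 14.5% and 14.8%, then the Z-disc, M-band and scaffold with 5.16% and 5.21%. Calcium handling and excitation genes held 5.09% and 4.70%, and creatine kinases 3.46% and 3.97%. The receptor and endplate group held 1.63% and 1.44%, and the assembly factors 1.13% and 1.12%. The order below the thin filament depended on scaling by length. By summed expected counts, the mean share was 14.1% for the Z-disc, M-band and scaffold, 9.54% for calcium handling and excitation, and 8.29% for the thick filament. The rank of the thin filament rests partly on Tpm1 and Tpm3, which cells outside muscle also express. Without these 2 genes its share was 49.1%, which was still above the 24.0% of the thick filament.

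In the thick filament, the fast light chain genes led and the slow ones were near the limit of detection. Myl1 encodes the alkali light chain of fast fibres and measured 141 TPM in replicate 1 and 144 TPM in replicate 2. Mylpf, the fast skeletal regulatory light chain, measured 110 and 112 TPM. Myl4, the alkali light chain of embryonic muscle and atrium, stood at 36.7 and 34.2 TPM. These 3 did not overlap with each other. Myl3, the slow and ventricular alkali light chain, had 0.93 and 1.84 TPM from 13 and 21 counts, and Myl6b, a slow and non-muscle form, had 0.92 and 0.86 TPM. Pth1r, with 2618 and 2551 counts, overlaps 4.65% of the Myl3 exon bases on the other strand, and its part in the Myl3 counts was not tested. Myl2, the slow and ventricular regulatory light chain, had 0.15 TPM from 1 count and 1.55 TPM from 11 counts.

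The ratio of Mylpf to Myl2 was 735 in replicate 1 (95% exact counting interval 132 to 29100) and 72.2 in replicate 2 (40.2 to 145). The ratio of Myl1 to Myl3 was 152 (88.7 to 286) and 78.0 (50.9 to 126). Both fast genes were therefore above their slow partners in each library, beyond counting error. Myl1 was 4.01-fold above Myl4 (log2 ratio of Myl4 to Myl1 -2.00 ± 0.09, SD, n = 2). Myl6b and Myl3 were not separated (log2 ratio -0.51 ± 0.71), a word used where the mean log2 ratio exceeds 2 SD and the ranges over the libraries do not overlap. None of the Myl2 reads was assigned to a complete coding transcript: in replicate 1 the whole of its TPM, and in replicate 2 81.3%, lay on noncoding models.

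The rest of the thick filament group encodes myosin-binding proteins, which stabilise the filament and tune the myosin heads. Mybph, myosin-binding protein H, measured 34.5 and 32.7 TPM. Mybpc1, the slow myosin-binding protein C, measured 15.5 and 16.4 TPM. Mybpc2, the fast form, was at 0.11 and 0.08 TPM, from 7 and 5 counts. The order was thus opposite to the light chains, with the slow gene above the fast one. Mybpc1 exceeded Mybpc2 by 141-fold in replicate 1 (67.9 to 351) and 205-fold in replicate 2 (87.6 to 633), and Mybph was 2.10-fold above Mybpc1 (log2 ratio 1.07 ± 0.11). Without scaling by length the latter ratio was 0.33, and these 2 genes were no longer separated. Adora1 lies on the other strand and overlaps 49.9% of the Mybph exon bases, with 2.40 and 1.29 TPM of its own.

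The start regions of Mylpf and Mybpc2 are shown because they belong to a fast gene of high level and to the fast gene of lowest level in this group. Each is the 250 bases before the RefSeq start site (GRCm38.p6), read 5′ to 3′ on the strand of the gene. Mylpf is chr7:127211358-127211607 on the plus strand and Mybpc2 is chr7:44524670-44524919 on the minus strand. Capitals mark matches on either strand to any of 6 motifs: the E-box CANNTG, its CAGCTG form, the TATA box TATAAA, the MCAT motif CATTCC, and the MEF2 and CArG motifs.
Mylpf: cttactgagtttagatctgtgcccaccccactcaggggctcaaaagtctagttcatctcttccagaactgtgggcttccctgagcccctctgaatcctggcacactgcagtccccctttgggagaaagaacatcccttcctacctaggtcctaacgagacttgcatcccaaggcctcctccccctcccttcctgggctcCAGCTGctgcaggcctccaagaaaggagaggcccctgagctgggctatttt
Mybpc2: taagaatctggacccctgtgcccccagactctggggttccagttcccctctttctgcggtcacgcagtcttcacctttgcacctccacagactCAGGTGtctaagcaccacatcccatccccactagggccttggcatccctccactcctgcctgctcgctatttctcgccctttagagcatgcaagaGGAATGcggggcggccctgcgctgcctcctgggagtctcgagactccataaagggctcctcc
The Mylpf window held 1 match, a CAGCTG E-box with its first base at -51 from the start site. The Mybpc2 window held an E-box of another form at -157 and an MCAT match on the opposite strand at -62. E-boxes are the letters that MyoD-family factors bind, and MCAT, MEF2 and CArG are those of TEAD, MEF2 and SRF. A match describes letters and does not show binding.

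Myl1 has 2 start sites that give a long and a short alkali light chain, known as MLC1f and MLC3f. They share their last 422 coding bases and differ at the start. The differing coding stretches are shown in capitals, with 30 shared bases after them in lower case, because they tell the 2 products apart. The first differing stretch runs through chr1:66934246-66944905 and the second through chr1:66934518-66935278, both spliced, on the minus strand (GENCODE M21, GRCm38).
Myl1, long form: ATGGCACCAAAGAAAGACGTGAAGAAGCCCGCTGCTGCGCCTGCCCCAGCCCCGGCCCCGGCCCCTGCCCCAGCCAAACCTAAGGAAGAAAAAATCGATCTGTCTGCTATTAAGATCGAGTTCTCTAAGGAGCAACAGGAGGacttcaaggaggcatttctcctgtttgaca
Myl1, short form: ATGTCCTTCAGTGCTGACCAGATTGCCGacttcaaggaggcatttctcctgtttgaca
The long form, with 564 coding bases, measured 54.1 TPM in replicate 1 and 44.8 TPM in replicate 2. The short form, with 450 coding bases, measured 82.9 and 93.2 TPM. It held 58.6% and 64.9% of the gene's level, and the ranges of the 2 forms did not overlap. By the deposited posterior means, the long form had 971 ± 43.9 and 812 ± 42.5 counts and the short form 1093 ± 40.8 and 1234 ± 40.1, where the error is the quantifier's posterior SD. Per read, before scaling by length, the forms were therefore closer in replicate 1 than in replicate 2.

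Thin filament genes had the highest levels of all, and among the troponins the slow genes were above the fast ones. Tnnt1, slow troponin T, measured 160 and 157 TPM. Tnnt2, the cardiac form that embryonic skeletal muscle also makes, measured 33.4 and 30.4 TPM. Tnnt3, fast troponin T, measured 14.2 and 11.8 TPM. The 3 ranges did not overlap, and Tnnt1 held 77.1% and 78.8% of the summed troponin T level. Tnnt1 was 12.2-fold above Tnnt3 (log2 ratio 3.60 ± 0.16) and 4.96-fold above Tnnt2 (2.31 ± 0.07), while Tnnt2 was 2.45-fold above Tnnt3 (1.29 ± 0.08).

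For troponin I, the inhibitory subunit, Tnni1 (slow) measured 82.6 and 74.7 TPM. Tnni2 (fast) measured 12.6 and 11.96 TPM, and Tnni3 (cardiac) 4.82 and 3.75 TPM. Slow Tnni1 held 82.6% of the summed level in both libraries. It was 6.35-fold above Tnni2 (log2 ratio 2.67 ± 0.05) and 18.1-fold above Tnni3 (4.18 ± 0.15, and 4.92 without scaling by length). Of the Tnni3 level, complete coding models held 1.37 and 1.54 TPM, and 66.0% and 34.7% lay on noncoding models. Dnaaf3, with 136 and 125 counts, overlaps 4.17% of the Tnni3 exon bases on the same strand. Its part in the 46 and 41 Tnni3 counts was not tested.

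For troponin C, the calcium sensor, Tnnc1 (slow and cardiac) measured 133 and 118 TPM. Tnnc2 (fast) measured 60.8 and 62.9 TPM. The slow gene was 2.02-fold above the fast one (log2 ratio 1.02 ± 0.15), the smallest slow-to-fast ratio of the 3 troponin families in these libraries. Of the annotated Tnnc2 exon bases 74.0% are also exon bases of Ube2c on the other strand, which stood at 459 and 505 TPM. No source used here says whether reads were counted by strand, and the part of Ube2c in the Tnnc2 counts was not tested.

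Troponin T and I genes lie in pairs on the chromosomes, and in 2 of the 3 pairs the levels differed. Tnnt1 and Tnni3 are 1922 bases apart on chromosome 7, at 160 and 4.82 TPM in replicate 1 and 157 and 3.75 TPM in replicate 2. Tnnt2 and Tnni1 are 25364 bases apart on chromosome 1, at 33.4 and 82.6 TPM and at 30.4 and 74.7 TPM. The fast pair Tnnt3 and Tnni2, 54425 bases apart on chromosome 7, was the exception, with ranges that overlapped (11.8 to 14.2 and 11.96 to 12.6 TPM).

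Tropomyosin lies along actin and blocks the myosin sites at rest. Tpm1 measured 476 and 468 TPM, Tpm3 425 and 437 TPM, and Tpm2 176 and 178 TPM. Tpm1 was 2.67-fold above Tpm2 (log2 ratio 1.42 ± 0.03) and Tpm3 was 2.44-fold above it (1.28 ± 0.02). Each of these genes has more than 1 annotated start or end, and the gene total sums over them.

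Tpm3 showed this most clearly. Its upstream start gives the long tropomyosin of slow muscle, and its downstream start gives short tropomyosins found in most cells. Complete coding models from the downstream start measured 376 and 385 TPM, or 88.5% and 88.2% of the gene. Those from the upstream start measured 1.40 and 1.52 TPM, or 0.329% and 0.348%. The remaining 11.2% and 11.5% lay on models that were not complete coding ones. Most of the Tpm3 level was thus assigned to the form of most cells. The 2 start regions are shown because they belong to the same gene and differ in level by this much. The upstream one is chr3:90072401-90072650 and the downstream one chr3:90079271-90079520, both on the plus strand, each the 250 bases before a RefSeq start (GRCm38.p6), with capitals as before.
Tpm3, upstream start: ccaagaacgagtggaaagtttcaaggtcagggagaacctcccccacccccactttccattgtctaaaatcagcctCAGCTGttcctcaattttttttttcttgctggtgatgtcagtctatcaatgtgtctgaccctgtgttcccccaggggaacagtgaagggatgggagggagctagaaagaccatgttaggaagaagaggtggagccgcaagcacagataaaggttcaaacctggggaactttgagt
Tpm3, downstream start: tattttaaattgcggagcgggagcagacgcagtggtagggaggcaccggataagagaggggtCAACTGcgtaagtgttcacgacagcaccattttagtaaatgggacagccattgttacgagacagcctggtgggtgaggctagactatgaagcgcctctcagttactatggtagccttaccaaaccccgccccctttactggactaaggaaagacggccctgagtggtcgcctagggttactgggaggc
The upstream window held a CAGCTG E-box at -175. The downstream window held an E-box of another form at -188, and neither held a match to the other motifs.

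In Tpm1, complete coding models from the upstream start measured 348 and 336 TPM (73.1% and 71.8%), and those from the downstream start 103 and 110 TPM (21.7% and 23.6%). Tpm1 therefore had the opposite balance to Tpm3. Its models also differ in the last exon, where the striated muscle ends lie upstream of the end used in most other cells. Models ending in the exon farthest downstream, which starts at chromosome 9 position 67023441, held 53.8% and 54.2% of the gene. The exons starting at 67028167 and 67029742 held 23.9% and 24.8%, and 11.8% and 11.5%, and the one at 67024565 held 5.22% and 4.97%.

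In Tpm2, the end farthest downstream (chromosome 4, last exon from 43514861) held 98.2 and 92.0 TPM, or 55.8% and 51.8%. The upstream end (last exon from 43516003) held 77.5 and 73.7 TPM, or 44.0% and 41.5%. By counts the order was the other way, with 40.3% and 39.3% for the downstream end and 59.6% and 59.1% for the upstream end, its models being the longer ones. Both ends were thus in use in both libraries, and which one led depended on the scaling by length.

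Neb encodes nebulin, a giant protein that runs along the thin filament, and measured 38.2 and 36.3 TPM. Its leading model, with 77.0% and 79.0% of the TPM, was a noncoding model of 1000 nt. Models of at least 10000 nt held 8.96% and 9.17% of the TPM and 66.2% and 66.5% of the counts. Most Neb reads were thus assigned to long models, while most of its TPM lay on a short one.

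The same held for Ttn, which encodes titin, the giant spring that spans from Z-disc to M-band. Ttn measured 29.4 and 30.8 TPM from 4959 and 5417 counts. Models of at least 10000 nt held 13.6% and 15.4% of this TPM and 79.8% and 81.1% of the counts. The leading model was an incomplete one of 2159 nt, with 61.4% and 56.0%. Neb stood 1.24-fold above Ttn by gene TPM (log2 ratio of Ttn to Neb -0.31 ± 0.10), but the direction turned over complete coding models alone (0.12) and without scaling by length (1.46). Which of the giant genes was higher was therefore not settled by these tables.

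**Figure D2:**
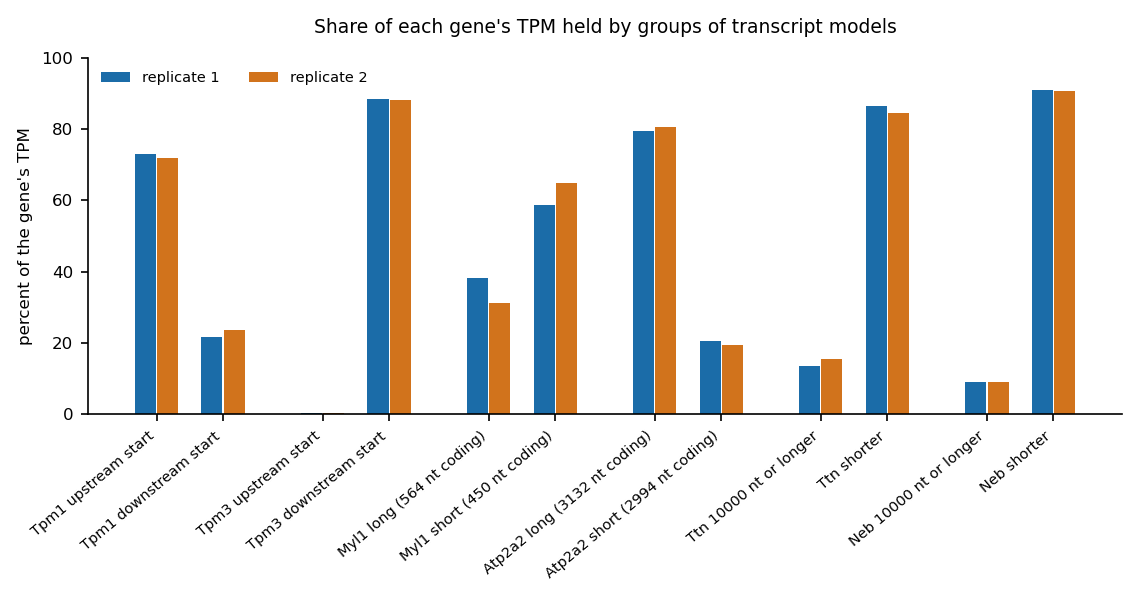
Percent of a gene's TPM held by groups of transcript models in replicate 1 (blue bars) and replicate 2 (orange bars), for start sites of Tpm1 and Tpm3, coding forms of Myl1 and Atp2a2, and model length in Ttn and Neb. The downstream start held 88.5% and 88.2% of Tpm3, and models under 10000 nt held 86.4% and 84.6% of Ttn.

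Among the other Z-disc, M-band and scaffold genes, alpha-actinin and desmin led. Actn2, the alpha-actinin of all striated fibres, measured 52.6 and 52.2 TPM. Actn3, the form of fast glycolytic fibres, measured 7.68 and 7.76 TPM, so that Actn2 was 6.71-fold higher (log2 ratio 2.75 ± 0.02). Des, which encodes desmin, the intermediate filament that ties Z-discs together, measured 20.8 and 19.8 TPM. The remaining members of the group were low. Tcap, the telethonin that caps titin, had 3.90 and 4.00 TPM, and Ldb3, a Z-disc PDZ-LIM protein, had 1.94 and 1.49 TPM. The M-band genes Myom1 and Myom2 had 3.03 and 3.13 TPM and 1.71 and 1.39 TPM, a 1.94-fold difference (log2 ratio 0.95 ± 0.23). Myl12a, at 509 and 511 TPM, overlaps 1.98% of the Myom1 exon bases on the other strand. Its part in the 299 and 311 Myom1 counts was not tested.

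Creatine kinases buffer ATP. Ckb, the brain-type form that many embryonic cells make, measured 80.9 and 91.6 TPM. Ckm, the muscle form, measured 0.24 and 0.20 TPM from 6 and 5 counts. Ckb was 337-fold higher in replicate 1 (155 to 919) and 458-fold higher in replicate 2 (196 to 1410). Ckm thus lay far under 1 TPM in libraries where the fast light chains exceeded 100 TPM.

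In calcium handling, the pumps that return calcium to the reticulum stood highest. Atp2a1, the pump of fast fibres (SERCA1), measured 44.6 and 44.4 TPM, and Atp2a2 (SERCA2) 44.7 and 40.2 TPM. The 2 were not separated as genes (log2 ratio of Atp2a2 to Atp2a1 -0.07 ± 0.10). By transcript they differed: 47.0% and 46.9% of Atp2a1 lay on an incomplete model of 681 nt, which left 23.6 TPM in both libraries on the complete coding one. Over complete coding models alone the log2 ratio was 0.84, and without scaling by length 1.01, with Atp2a2 higher and separated in both. Exons of Rabep2 on the other strand, at 31.1 and 31.3 TPM, cover 21.9% of the Atp2a1 exon bases.

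Atp2a2 has a muscle form, SERCA2a, and a form of most cells, SERCA2b, which differ in their last coding bases. The stretches that differ, without the stop codon, are shown in capitals for that reason, after 30 shared bases in lower case (chromosome 5, minus strand, GENCODE M21). The first differing stretch is chr5:122457154-122457302 and the second chr5:122454294-122454304, and the forms share 2983 coding bases before them.
Atp2a2, SERCA2b, 3132 coding bases: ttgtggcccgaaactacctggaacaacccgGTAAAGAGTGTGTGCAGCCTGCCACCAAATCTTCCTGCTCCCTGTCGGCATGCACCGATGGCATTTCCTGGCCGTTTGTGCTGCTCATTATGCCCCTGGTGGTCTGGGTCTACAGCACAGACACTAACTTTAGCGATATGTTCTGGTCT
Atp2a2, SERCA2a, 2994 coding bases: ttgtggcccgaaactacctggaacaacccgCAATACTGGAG
The SERCA2b model measured 35.5 and 32.5 TPM, or 79.5% and 80.7% of the gene. The SERCA2a model measured 9.14 and 7.76 TPM, or 20.5% and 19.3%. Their ranges did not overlap, and the form of most cells was the higher one in both libraries.

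Calsequestrins store calcium in the reticulum. Casq2, the cardiac and slow form, measured 15.3 and 13.2 TPM, and Casq1, the skeletal form, 3.37 and 2.43 TPM. Casq2 was 4.83-fold higher (log2 ratio 2.27 ± 0.17, and 3.29 without scaling by length), and complete coding models held 1.10 and 0.94 TPM of Casq1. Ryr1, the release channel of skeletal muscle, measured 2.22 and 2.19 TPM from 636 and 631 counts, since its transcript is very long. Ryr3, a release channel that developing muscle also expresses, had 0.20 and 0.09 TPM from 20 and 17 counts. Ryr1 was 11.1-fold (7.13 to 18.3) and 24.3-fold (15.1 to 42.0) higher. These intervals cover counting error only and not the assignment to models. Of the Ryr3 level, 68.4% and 37.5% lay on noncoding models. Its estimated mean transcript length was 5509 nt in replicate 1 and 10397 nt in replicate 2. Aven, with 308 and 319 counts, overlaps 4.83% of the Ryr3 exon bases on the other strand, and its part in the few Ryr3 counts was not tested. By gene TPM the voltage sensor genes were of a similar low level, with Cacna1s at 3.05 and 2.05 TPM and its gamma subunit Cacng1 at 3.06 and 2.58 TPM. Complete coding models held 1.07 and 1.0 TPM of Cacna1s, while the whole of Cacng1 lay on its coding model. Cav3, the caveolin of the muscle membrane, measured 2.92 and 1.60 TPM.

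The muscle acetylcholine receptor is built from alpha, beta and delta subunits with gamma before birth and epsilon after it. Chrnb1 measured 14.0 and 12.9 TPM, Chrng 9.62 and 8.66 TPM, Chrna1 7.11 and 6.70 TPM and Chrnd 2.50 and 1.41 TPM. Chrne, the adult epsilon subunit, had 0 counts in both libraries. Against a floor of 3 counts per library, Chrng was at least 54.0-fold higher. The fetal subunit was thus present and the adult one was not detectable at this depth. Musk, the receptor kinase that organises the endplate, measured 4.86 and 3.56 TPM.

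The receptor carries 2 alpha subunits, and by gene TPM Chrna1 stood below Chrnb1 and Chrng and above Chrnd. Chrnb1 was 1.93-fold above Chrna1 (log2 ratio of Chrna1 to Chrnb1 -0.95 ± 0.02) and Chrng 1.32-fold (Chrna1 to Chrng -0.40 ± 0.05). Chrna1 was 3.53-fold above Chrnd (1.82 ± 0.49, and 2.59 without scaling by length) and 1.64-fold above Musk (0.72 ± 0.25). The order of alpha against beta and gamma depended on how the level was formed. Over complete coding models, Chrnb1 had 8.77 and 7.66 TPM and Chrng 7.16 and 6.15 TPM, which gave log2 ratios of -0.24 and 0.06. Without scaling by length these 2 ratios were 0.57 and 0.61, with Chrna1 higher in both.

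The start regions of Chrna1 and Chrng are shown because these 2 subunit genes lie on different chromosomes and had levels of the same order (7.11 and 9.62 TPM in replicate 1). They are chr2:73580339-73580588 on the minus strand and chr1:87205561-87205810 on the plus strand (RefSeq, GRCm38.p6), with capitals as before.
Chrna1: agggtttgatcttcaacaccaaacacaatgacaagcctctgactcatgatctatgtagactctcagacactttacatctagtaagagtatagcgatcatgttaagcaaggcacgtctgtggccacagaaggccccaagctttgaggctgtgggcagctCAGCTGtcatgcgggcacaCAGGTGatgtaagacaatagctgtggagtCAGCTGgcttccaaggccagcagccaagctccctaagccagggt
Chrng: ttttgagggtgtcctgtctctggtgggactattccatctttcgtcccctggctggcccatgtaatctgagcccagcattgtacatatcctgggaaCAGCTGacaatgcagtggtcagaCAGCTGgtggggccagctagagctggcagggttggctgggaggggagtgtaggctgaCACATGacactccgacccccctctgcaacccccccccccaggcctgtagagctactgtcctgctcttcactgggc
Both windows held 3 E-boxes, of which 2 were of the CAGCTG form. In Chrna1 these 2 began at -92 and -44, and in Chrng at -155 and -132. Neither window held a match to the TATA box, MCAT, MEF2 or CArG motifs. Chrnd lies 4586 bases from Chrng on chromosome 1, on the same strand, and was lower in both libraries.

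Over the whole set, 38 of the 48 genes were in the RefSeq promoter table, with 43 start sites. Tnnt3, Tnni2, Neb, Actn3, Tcap, Myom2, Ryr3, Cacng1, Atp2a2 and Chrnd were not among them. In the 250 bases before a start, the CANNTG E-box occurred in 86.0% of the 43 windows, beside 66.2% of all 32851 windows of the table. Its CAGCTG form, which counts among these, occurred in 46.5% beside 13.0%, in 19 of the 38 genes. TATAAA occurred in 16.3% beside 12.4%, and CATTCC in 23.3% beside 12.6%. MEF2 matches occurred in 9.30% beside 2.92% and CArG matches in 9.30% beside 1.47%. The windows with a CArG match belonged to 3 genes, since overlapping windows of Ldb3 were each counted. The median GC content was 57.6% in these windows and 52.4% in all, and its part in the shares was not tested.

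**Figure D3:**
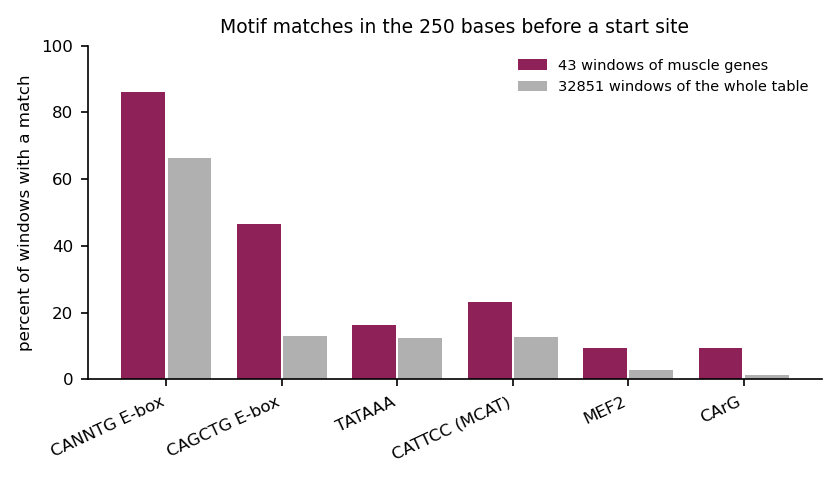
Percent of start windows (250 bases before the RefSeq start) with at least 1 match on either strand, for 43 windows of the muscle genes and for 32851 windows of the whole table. The CAGCTG E-box stood at 46.5% against 13.0%, and no test was made.

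The 3 factors that help to fold and assemble filaments completed the set. Klhl41, a kelch protein of the sarcomere, measured 12.1 and 11.8 TPM. Unc45b, the chaperone of muscle myosin, measured 10.2 and 9.86 TPM, and Smyd1, a methyltransferase needed for sarcomere assembly, 4.29 and 4.32 TPM. Klhl41 and Unc45b did not overlap, and all 3 were detected in both libraries.

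Within-library ratios separated 25 of the 27 gene pairs compared. The exceptions were Myl6b with Myl3 and Atp2a2 with Atp2a1. With 2 libraries an exact sign-flip test cannot go below p = 0.5, so none was made. By fibre type the pairs did not point one way. The slow gene was higher in the pairs Tnnt1 and Tnnt3, Tnni1 and Tnni2, Tnnc1 and Tnnc2, and Mybpc1 and Mybpc2. The fast gene was higher in the pairs Mylpf and Myl2, and Myl1 and Myl3.

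**Figure D4:**
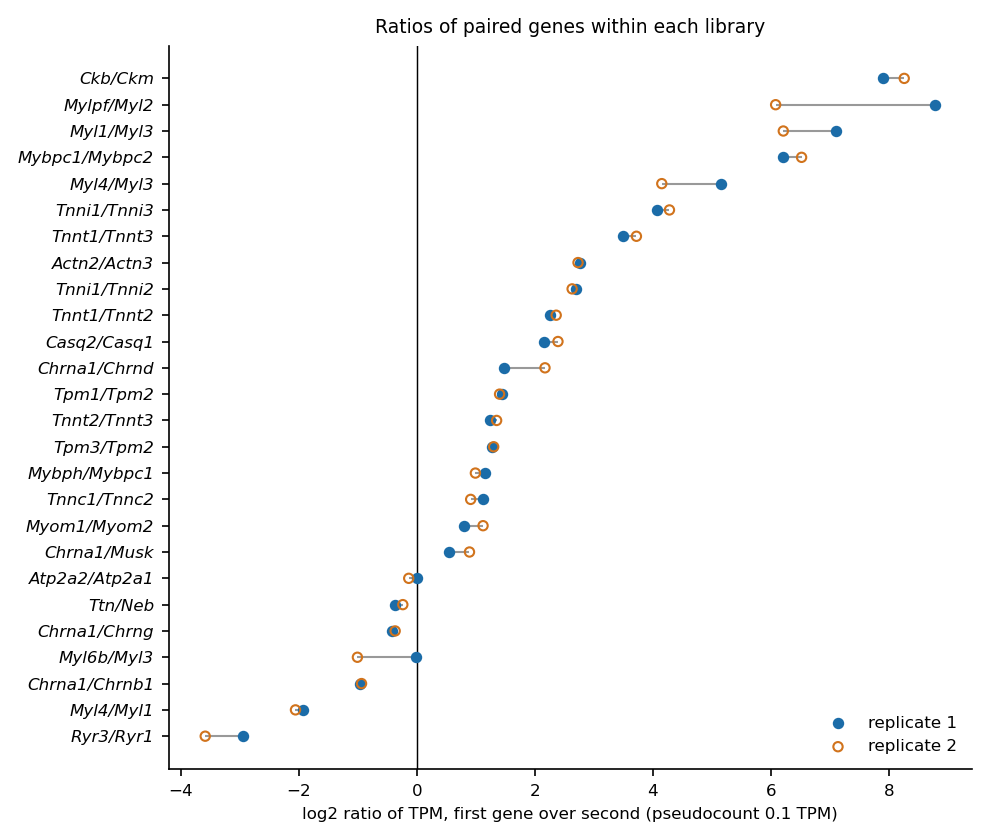
Log2 ratio of TPM (pseudocount 0.1 TPM), first gene over second, for 26 gene pairs in replicate 1 (filled) and replicate 2 (open), with a line between them; Chrng with Chrne is left out because Chrne had 0 counts. Atp2a2 with Atp2a1 lies at 0, and Mylpf with Myl2, which rests on 1 and 11 Myl2 counts, has the widest gap between libraries.

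Leading transcripts were compared for the 26 genes of at least 5 mean TPM with more than 1 model. The same transcript led in both libraries in 26 of 26. It held at least 90% of the gene in both libraries in 6 of them, among which Des had 98.1% and 97.7% and Tnnc1 93.1% and 95.5%. Tnnt3 had 20.7% and 35.3% on its leading model and 26 models in all. In Tnnt1, models of 750, 783 and 786 coding bases held 35.1% and 34.7%, 30.9% and 29.0%, and 20.2% and 19.5%, so that no single splice form held most of slow troponin T. In Neb and Ttn the leading model was not a complete coding one.

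Between the libraries, members of high level hardly differed. All 26 genes with a mean of at least 10 TPM stayed within 0.26 on the log2 scale. Of the 43 genes with a mean of at least 1 TPM, 30 were lower in replicate 2, beside 47.4% of all 15112 such genes. Their median log2 ratio of replicate 2 over replicate 1 was -0.072, against 0.009 for all genes. In the calcium handling group 9 of 9 genes were lower, and in the receptor and endplate group 5 of 5. By counts and TMM scaling these numbers were the same, and by posterior mean TPM the first was 8. They count direction only, and some of the differences were close to none. The log2 ratios ran from -0.83 to -0.01 in the calcium handling group and from -0.78 to -0.08 in the receptor and endplate group. The other groups were less one-sided, with 9 of 12 lower in the thin filament, 2 of 3 in filament assembly, 4 of 9 in the thick filament, 4 of 8 in the Z-disc, M-band and scaffold group and 1 of 2 creatine kinases. Beside this, summed skeletal muscle markers went from 670 to 632 TPM, limb mesenchyme markers from 986 to 1047 TPM, and neuron markers from 51.6 to 69.5 TPM, with Nefl and Prph called higher in replicate 2. Not every gene moved with the sum of its list. Lower in replicate 2 were 5 of 7 skeletal muscle markers, 1 of 5 mesenchyme markers and 1 of 6 neuron markers. The part of such a difference in tissue make-up was not tested.

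Gene by gene, an exact binomial test of counts was adjusted by Benjamini-Hochberg over 18580 genes, of which all 48 were tested. It compares these 2 libraries and covers counting error only. A call needed an adjusted p under 0.05 and at least a 2-fold difference, and 1 of the 48 genes was called, beside 1.85% of all genes. This gene was Myl2, with 1 and 11 counts, a ratio of 10.8 (95% exact interval 1.58 to 467) and an exact adjusted p of 0.0415. By edgeR's exact test, which adds the spread between the libraries, its adjusted p was 0.247. That test called 0 of the 48 genes (1.30% of all), and 2 had an unadjusted p under 0.05 (7.33% of all), Myl2 and Cav3.

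With no limit on the fold, the binomial test took 9 of the 48 genes, a share near the 16.4% of all genes. Unadjusted, 16 of the 48 had a p under 0.05, beside 27.3% of all. The 9 were Tnni1 (count ratio 0.827), Tnnc1 (0.887), Atp2a2 (0.895), Casq2 (0.862) and Cav3 (0.544), lower in replicate 2, and Ckb (1.12), Ttn (1.08), Mybpc1 (1.15) and Myl2, higher. By TPM, the 3 largest log2 ratios downward among genes of at least 1 TPM were those of Cav3 (-0.83), Chrnd (-0.78) and Cacna1s (-0.55). Upward they were those of Myl3 (0.91), Ckb (0.18) and Mybpc1 (0.09). For Cacna1s the counts were nearly level, at 152 and 144, and the estimated mean transcript length was 2758 nt in replicate 1 and 3834 nt in replicate 2. The lower TPM of Cacna1s thus went with a change in the assigned models. For Chrnd the counts were 106 and 76, a log2 count ratio of -0.50 against -0.78 by TPM. Its estimated mean transcript length was 2361 nt in replicate 1 and 2949 nt in replicate 2.

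**Figure D5:**
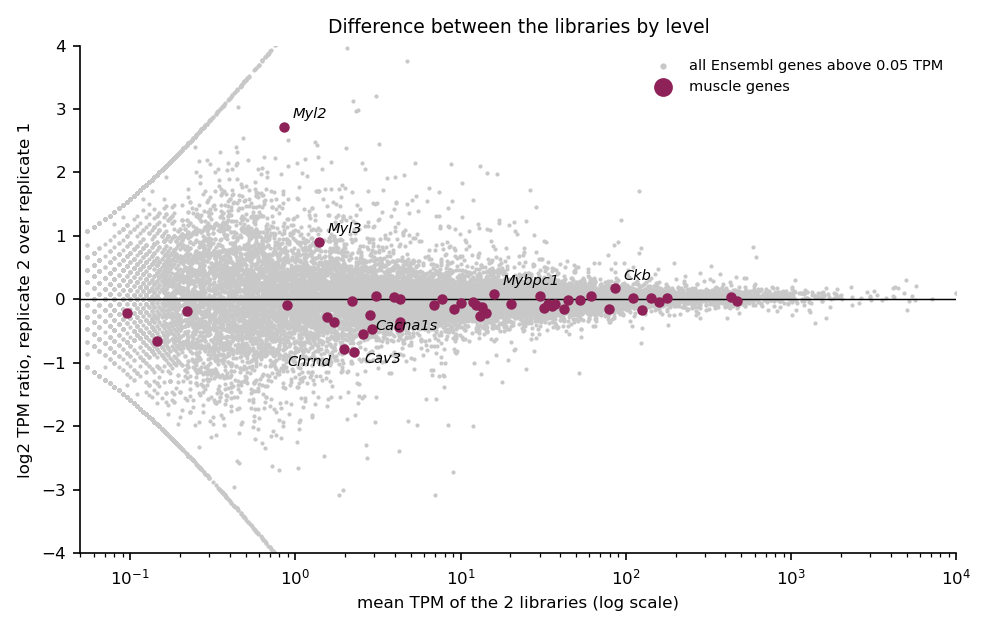
Log2 TPM ratio of replicate 2 over replicate 1 (pseudocount 0.1 TPM) against the mean TPM of the libraries (log axis), for all Ensembl genes above 0.05 TPM (grey) and the 48 muscle genes (dark points). Labels mark Myl2, Myl3, Cav3, Chrnd, Cacna1s, Ckb and Mybpc1. Above 10 TPM the muscle genes lie within 0.26 of 0, and Myl2 and Myl3, with few counts, lie highest.

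Genes of the same pathways outside the set were counted from lists chosen by name. Of 8 sarcomeric myosin heavy chain and striated actin genes 5 were detected, led by Actc1 (351 and 337 TPM) and Acta1 (98.7 and 86.2 TPM), while the fast heavy chain Myh2 had 0.12 and 0.08 TPM. Of 28 Z-disc and filament partners 19 were detected, and the highest were Myl6 (590 and 577 TPM) and Tpm4 (562 and 563 TPM), forms that most cells make. Lowest in that list were Myoz3 and Xirp2, both at 0 TPM in each library. Of 15 triad and calcium genes 12 were detected, from Fkbp1a (344 and 360 TPM) and Asph (67.0 and 63.3 TPM) down to the sodium channel Scn4a (0.42 and 0.21 TPM). Myh2 and Scn4a thus lay below the limit of detection, as Ckm and Mybpc2 did.

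Of 8 endplate genes 6 were detected, with Agrn, which encodes agrin, at 69.1 and 66.0 TPM and Rapsn, which clusters the receptor, at 7.0 and 7.32 TPM. All 10 dystrophin complex genes were detected, from Dag1 (43.8 and 38.5 TPM) and Sgcb (27.9 and 27.6 TPM) to Sgca (2.49 and 2.37 TPM). Of 13 regulators and fusion genes 11 were detected, with Myog at 97.9 and 91.2 TPM and Pax7 at 0.36 and 0.34 TPM. Of 6 genes of fibre metabolism 4 were detected, with Pfkm (42.5 and 41.3 TPM) and Eno3 (28.4 and 32.0 TPM) highest and Pvalb, the calcium buffer of fast fibres, at 0.06 and 0 TPM. These 7 lists hold 88 genes, of which 81 could be tested between the libraries. By the binomial test with the 2-fold limit 0 of them were called, beside 1.85% of all genes. With no fold limit 19 passed, beside 16.4% of all, and 28 had an unadjusted p under 0.05, beside 27.3% of all. By edgeR's exact test 0 passed the adjusted limit (1.30% of all) and 6 the unadjusted one (7.33% of all).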

How the data were processed

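Total RNA-seq of e12.5 limb was analysed from the gene and transcript tables deposited for 2 biological replicates. The deposited expected counts, which the quantifier estimates and which need not be whole, were rounded for the tests. The deposited TPM and FPKM values are scaled by length and library, per the file headers. For each transcript a deposited percent value states its part of the gene's total. Per the submitters' accompanying text files, reads were assigned to mm10 with GENCODE M4. The sources used here do not name the aligner, the quantifier or the strand setting. Symbols, coordinates and transcript names came from GENCODE M21 on that assembly and were matched on unversioned identifiers; 293 of 297 member transcripts matched, 270 with the same length. Start regions came from a RefSeq table of GRCm38.p6; the bases after the start were found in a transcript of the gene for 35 of 43 windows.

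Log ratios used a pseudocount of 0.1 TPM. Libraries were compared by an exact conditional binomial test of counts against library totals over genes whose summed count was at least 10, adjusted by Benjamini-Hochberg. With 1 group, edgeR's quasi-likelihood test has no contrast, and its exact test with a common biological coefficient of variation of 0.0698 was the alternative. Over 16324 genes the counts of the libraries differed with a chi-square of 6.66 per degree of freedom, so they were treated as 2 libraries. Intervals (95%) and the floor of 3 counts cover counting error only. The test was run on simulated data of 43346 genes for the comparison of the libraries, and it called 100% of 100 genes with a 4-fold change, 52.0% of 100 genes with a 2-fold change and 2 unchanged genes, out of 18605 tested. A call needs an estimated fold of 2, which bears on the second share. The simulated counts held counting error only, and the changes were placed in genes of at least 100 expected counts. The outcome therefore does not cover the wider spread between these libraries, or genes of few counts such as Myl2.

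The members, classes, pairs and lists were chosen with earlier results of these data known. Every member is named by its class. Of other lists the 2 highest and the lowest are named, and between the libraries every called member and the 3 largest ratios in each direction. Of the marker lists, a few genes were named after their values were seen. One gene of the regulator list is not reported here. Tools were Python 3.11.15 with numpy 2.4.6, pandas 2.3.3, scipy 1.17.1 and matplotlib 3.10.9, and edgeR 4.0.16 and DESeq2 1.42.0 in R 4.3.3.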

Additional observations from a re-analysis of the deposited data

How the results depend on the processing

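Detection changed little: 39 to 44 of the 48 genes passed at 0.5 TPM, by posterior mean TPM, by FPKM or in a single library, 40 over complete coding transcripts (an alternative chosen after seeing the data), and 29 at 5 TPM. The number called between the libraries was 1 with TMM or DESeq2 scaling, 0 with at least 100 counts, 0 with at least 1 count, 0 by edgeR's exact test and 9 with no fold limit; the single call, Myl2, rests on 12 counts, which the limit of 100 leaves out, and the cause of the other changes was not tested. Lower in replicate 2 were 20 of 29 genes of at least 5 TPM and 30 to 34 under the other settings, and the median log2 ratio stayed between -0.078 and -0.047. The thin filament share of 68.9% was 68.5% by posterior mean TPM, 60.7% by expected counts, and 68.7 to 69.0% leaving out either replicate. It was 49.1% without Tpm1 and Tpm3 and 69.7% over complete coding transcripts, both chosen after seeing the data. Separated pairs numbered 25 under each pseudocount, by posterior mean TPM and without length scaling, and 24 over complete coding transcripts, but the pairs were not all the same. Without length scaling Mybph to Mybpc1 (0.33) was no longer separated and Atp2a2 to Atp2a1 (1.01) became so; Tnni1 to Tnni3 (4.92), Casq2 to Casq1 (3.29), Ryr3 to Ryr1 (-4.90) and Chrna1 to Chrnd (2.59) moved by over 1.5 times. Over complete coding transcripts Atp2a2 to Atp2a1 (0.84) became separated, Ttn to Neb and Chrna1 to Chrng were no longer so, and Mylpf to Myl2 (9.95), Tnni1 to Tnni3 (5.59), Casq2 to Casq1 (3.68), Ryr3 to Ryr1 (-3.90) and Chrna1 to Chrnb1 (-0.24) moved by as much. The pairs with Ryr3 or Chrne moved by as much under either pseudocount and by posterior mean TPM, that with Mybpc2 under either pseudocount, that with Myl2 by posterior mean TPM and with a pseudocount of 1, and those of Myl1 and Myl4 with Myl3 and of Ckb with Ckm with a pseudocount of 1. The direction turned for Ttn to Neb (1.46), Chrna1 to Chrnb1 (0.57) and Chrna1 to Chrng (0.61) without length scaling, and for Ttn to Neb (0.12) and Chrna1 to Chrng (0.06) over complete coding transcripts; these alternatives change the length or models that enter. Leaving out either replicate turned no separated pair, but a single library gives no count of separated pairs and no comparison of leading transcripts. By posterior percent 25 of 26 genes kept the same leading transcript in both libraries. No paired analysis was possible because there is only 1 group. Depth limits Myl2, Ckm and Mybpc2, which had 12 counts or fewer over both libraries.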
